A study of Drosophila melanogaster with 3 samples.

Results

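Binding of the Runx-family transcription factor lozenge (lz), which acts in blood cell, eye and antennal development, was described at 7 genes of *Drosophila melanogaster*: the Hedgehog pathway genes hh, ptc, smo, cos and ci, and the engrailed genes en and inv. The genes were chosen by name, out of 13968 protein-coding genes. Their calls were all summits inside the annotated gene span or within 1000 bp of it, on the dm6 build. The data came from chromatin immunoprecipitation and sequencing (ChIP-seq) of 3 biological replicates of 1 group, with no second condition. Each replicate was whole white prepupae, the stage at which metamorphosis begins, with males and females pooled. All animals belonged to a transgenic line that stably expresses lz with GFP at its C-terminus, and an antibody to GFP was used for the precipitation. What drives the transgene is not given in the sources used here, and the animals' exact age is labelled as unknown.

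Hedgehog signalling patterns fly tissues through a secreted ligand. In cells without ligand the receptor Patched holds the membrane protein Smoothened inactive, and the factor Cubitus interruptus (Ci) is cut into a repressor. Ligand bound to Patched frees Smoothened, and full-length Ci then activates targets that include ptc itself. The wing and leg imaginal discs are the tissues that form those adult parts. Their posterior cells express the homeodomain factors Engrailed and Invected along with Hedgehog, and their anterior cells express ci.

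Peaks were unevenly spread over the 7 genes. The gene inv had 7 thresholded summits, the ones that the authors kept as reproducible, and ptc had 6. A further summit lay at smo, and hh, cos, ci and en had none. Thus 3 of the 7 genes (42.9%) had a thresholded peak, against 38.1% of all protein-coding genes, so the share was near that of all genes. In the deciles of gene span that hold the 7 genes, 50.5% to 68.1% of genes had one. Of the highest 8048 peaks of each replicate, as many as the thresholded list holds, replicate 1 placed peaks at 3 of the 7 genes, replicate 2 at 2 and replicate 3 at 2. The corresponding shares of all genes were 40.5%, 34.6% and 38.1%. Calls of any rank were present at 7, 6 and 6 of the 7 genes in replicates 1, 2 and 3, against 66.5%, 60.6% and 66.2% of all genes. These replicate shares were not matched on gene span, and the 7 genes lie in span deciles 8 to 10. No test was made, since the group has no counterpart and the genes were picked by name.

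Ranks here order the authors' signal value within 1 list, 1 being the highest, and the 14 summits had pooled ranks between 1324 and 7587 of 8048, with a median of 5070. In all, 5 of them were among the 4024 strongest. A summit was called found in a replicate when 1 of that replicate's highest 8048 peaks lay within 100 bp. On that count 6 of the 14 summits (42.9%, exact 95% interval 17.7 to 71.1) were found in all 3 replicates, against 65.0% of all thresholded peaks. Another 4 (28.6%, against 23.7% of all) had support from 2 replicates, the last 4 had it from a single one, and no summit lacked it. Replicate 1 held 9 of the 14 (64.3%), replicate 2 held 11 (78.6%) and replicate 3 held 10 (71.4%). Of all thresholded peaks, replicates 1, 2 and 3 held 85.5%, 81.2% and 86.1%. The 5 summits among the 4024 strongest peaks were found in every replicate, and of the other 9 so was 1. The pooled list comes from the same 3 replicates, and support is itself a cut on rank. Such a relation is therefore largely built in. Read depth is unknown, so the exact 95% interval covers counting of summits only. It treats the 14 summits as independent. All but the smo summit lie at ptc or inv, however, and some neighbours are 199 to 202 bp apart.

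**Figure D1:**
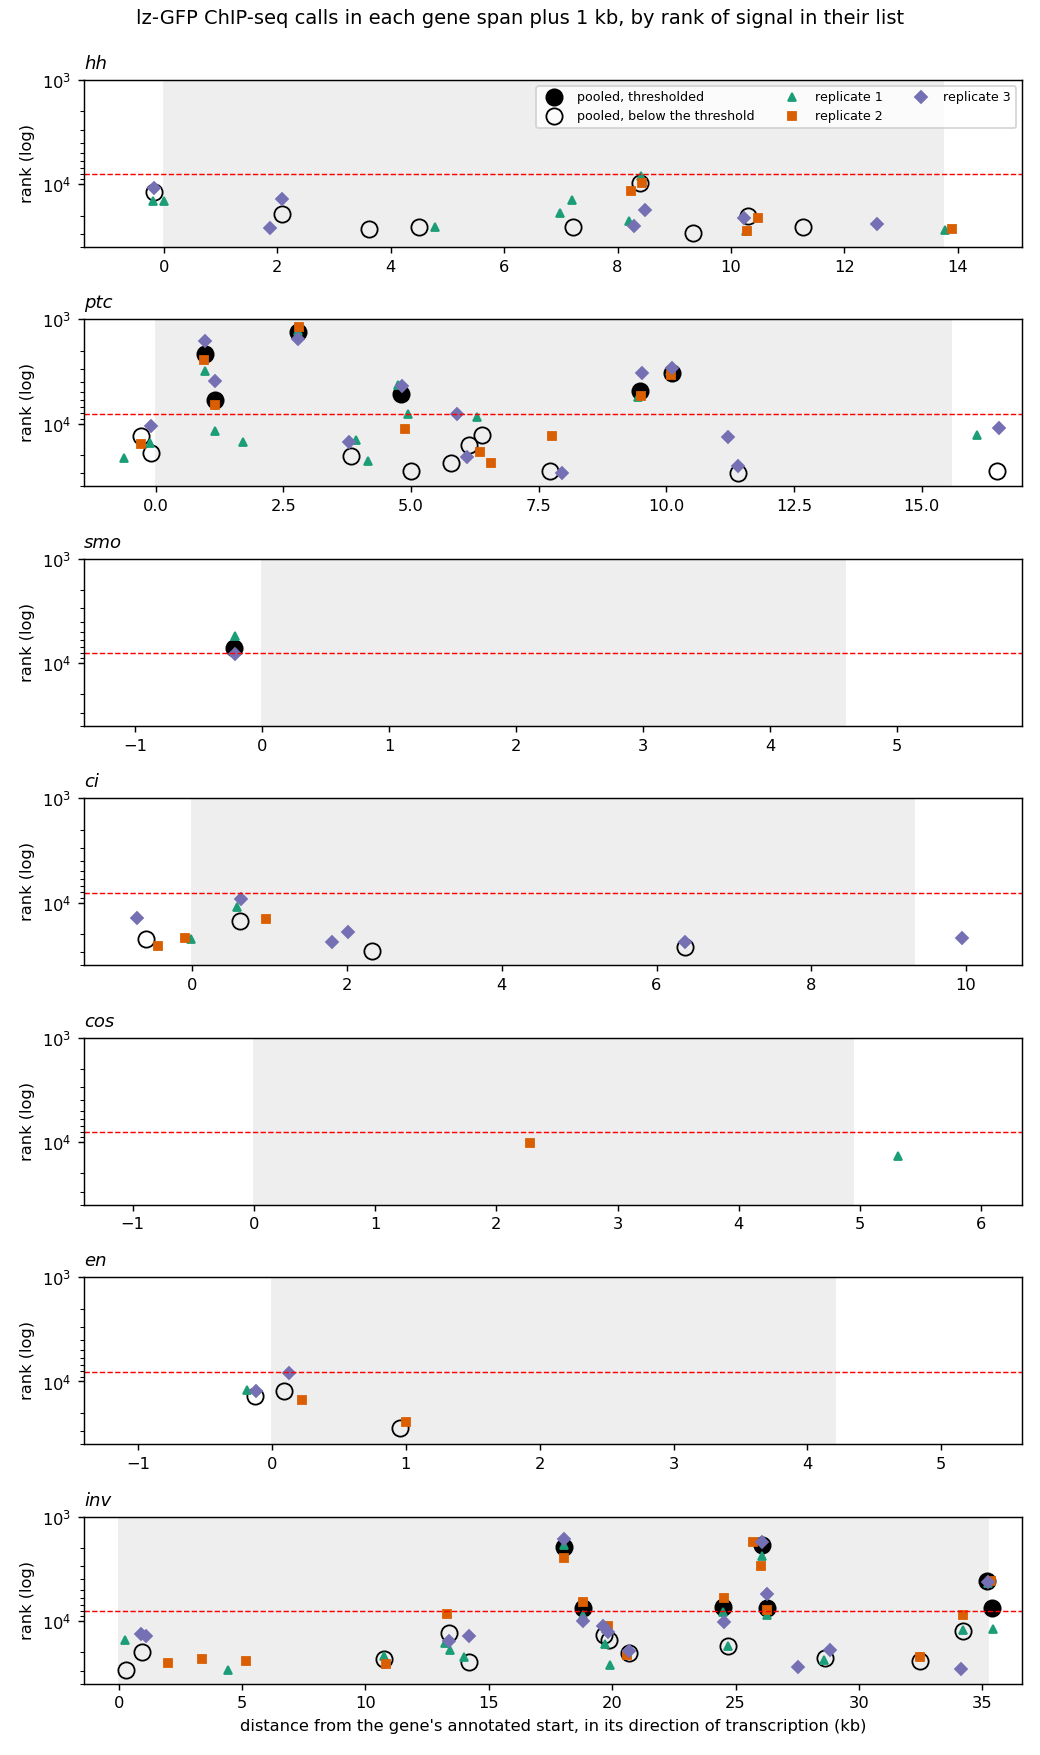
Calls along the 7 genes. The horizontal axis is the distance from the annotated start in the direction of transcription (kb), grey marks the gene span, and the vertical log axis is the rank in the pooled list (circles, filled when thresholded) or in a replicate list (small symbols). The red line is rank 8048. Filled circles stand at ptc (6), smo (1) and inv (7), and cos has no pooled call.

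The ligand gene hh (FBgn0004644, chromosome 3R, 23128169 to 23141906, minus strand) had no thresholded summit within 1000 bp of its span, and none of the highest 8048 peaks of any replicate. It held 9 pooled calls of lower rank, and 9, 5 and 7 calls in replicates 1, 2 and 3. The strongest had its summit at 23133510, in intron 1 of 2, with a pooled rank of 9853. Its rank was 8293 in replicate 1, 9702 in replicate 2 and 17810 in replicate 3, so each replicate had a call there but none reached the highest 8048. Its −log10 q-value in the authors' pooled list was 2.97, against 4.22 for every thresholded peak, a shared value that does not order those peaks. In the lists of replicates 1, 2 and 3 the value was 4.27, 1.29 and 0.846. The ptc call of rank 1310 in replicate 1 also had 4.27. The next lay at the hh promoter, 177 bp upstream of the start, with a pooled rank of 11994. Replicates 1 and 3 had calls of rank 14608 and 10784 there, and replicate 2 had no call within 100 bp.

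Stronger peaks lay farther upstream of hh, outside the 1000 bp limit. Within 20000 bp of the gene, a distance chosen after the positions were seen, 4 thresholded summits had the hh start as their nearest transcription start site (TSS). All 4 were intergenic and upstream, at 2934, 5902, 6687 and 7395 bp from the start. The summit at 6687 bp was the strongest, with a pooled rank of 1945 and ranks of 1509, 1935 and 2041 in replicates 1, 2 and 3. The summit at 5902 bp ranked 3144 (3449, 3022 and 3206 in the replicates), and that at 7395 bp ranked 3319 (3726, 3604 and 2183). These 3 stood among the highest 8048 peaks of every replicate. The nearest to the gene was at the edge of the threshold, with a pooled rank of 7961 and replicate ranks of 7118, 7900 and 8577. A thresholded peak within 20000 bp is common: 85.9% of protein-coding genes had one.

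The windows from 50 bp before to 50 bp after these summits are shown because the hh locus holds the calls just below the threshold and the stronger ones upstream of it. They are from the RefSeq dm6 sequence, plus strand. Capitals mark matches to the searched motifs: the GATA factor words (AGATAA, with its variant TGATAA), the homeodomain core (TAATTA) and the core of the Polycomb-recruiting protein Pho (GCCAT), all on both strands.
hh intron 1, chr3R:23133460-23133560: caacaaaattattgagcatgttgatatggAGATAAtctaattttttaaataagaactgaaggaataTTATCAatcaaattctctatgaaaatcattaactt
hh promoter, chr3R:23142033-23142133: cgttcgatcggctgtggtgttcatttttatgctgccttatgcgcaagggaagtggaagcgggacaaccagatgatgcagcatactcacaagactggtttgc
hh upstream 2934 bp, chr3R:23144790-23144890: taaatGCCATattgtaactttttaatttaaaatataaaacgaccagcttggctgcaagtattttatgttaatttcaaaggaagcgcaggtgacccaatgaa
hh upstream 5902 bp, chr3R:23147758-23147858: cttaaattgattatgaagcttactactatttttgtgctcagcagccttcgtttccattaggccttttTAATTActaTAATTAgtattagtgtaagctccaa
hh upstream 6687 bp, chr3R:23148543-23148643: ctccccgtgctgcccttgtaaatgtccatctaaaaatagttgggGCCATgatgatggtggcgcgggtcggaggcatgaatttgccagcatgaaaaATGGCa
hh upstream 7395 bp, chr3R:23149251-23149351: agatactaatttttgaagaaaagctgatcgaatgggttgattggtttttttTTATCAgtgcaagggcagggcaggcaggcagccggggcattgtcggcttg

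None of these 6 windows held the Runx consensus, searched on both strands as the word AACCACA, the variant AACCGCA, the variant GACCACA and the variant GACCGCA. The intronic window was the most AT-rich, with 22.8% G and C and 2 GATA matches. The strongest upstream window had 51.5% G and C and 2 GCCAT matches, 1 of them 4 bp from the summit. Among all 8048 thresholded windows, 16.6% held a GATA match, 9.46% a TAATTA match and 13.3% a GCCAT match, so such matches are frequent.

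The receptor gene ptc (FBgn0003892, chromosome 2R, 8649649 to 8665223, plus strand) had 6 thresholded summits, all inside intron 1 of 5. Cut to their highest 8048, replicates 1, 2 and 3 had 5, 5 and 7 peaks at ptc, a mean of 5.67 ± 1.15 (SD, n = 3). The strongest summit, at 8652440 and 2791 bp past the start, had a pooled rank of 1324. Its ranks of 1310, 1199 and 1547 in replicates 1, 2 and 3 were nearly the same. The summit at 8650605, 956 bp past the start, ranked 2171 in the pool and 3109, 2443 and 1617 in the replicates. Farther in, 10113 bp past the start, the summit at 8659762 ranked 3300 in the pool and 3101, 3400 and 2952 in the replicates. These 3 were the ptc summits among the 4024 strongest thresholded peaks.

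The other ptc summits had lower pooled ranks, of 4892 to 5985. The summit at 8659139 ranked 5570, 5415 and 3248 in replicates 1, 2 and 3, all among the highest 8048. That at 8654457 ranked 4268 and 4411 in replicates 1 and 3 but 11348 in replicate 2. That at 8650807, 202 bp from its stronger neighbour, ranked 6696 and 3938 in replicates 2 and 3 but 11846 in replicate 1. It lies in an exon of lncRNA:CR44281, a noncoding gene inside the ptc intron on the opposite strand. The 3 ptc summits nearest to the start and the summit at 8654457 had the start of that noncoding gene as their nearest TSS. The 2 farthest had that of Acsl, a long-chain acyl-CoA synthetase gene downstream. At the ptc promoter itself the calls were weak: summits 84 and 283 bp upstream ranked 19073 and 13290 in the pool.

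Peak density at ptc was 0.341 per kb of span plus flanks, against 0.188 at inv and 0.152 at smo. Densities over all genes are not given here. In the ptc decile of gene span, 15.2% of 1397 genes had at least as many thresholded summits, the mean being 2.59. Over all protein-coding genes, 1.60% had 6 or more. Upstream of the gene stood stronger peaks: 5272 bp from the start a summit ranked 694 in the pool and 648, 678 and 683 in the replicates. Another 10131 bp upstream ranked 509 in the pool and 638, 540 and 439 in the replicates, with CG8635 as the gene of its nearest TSS. Both stood above every summit inside ptc in each replicate.

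The signal transducer gene smo (FBgn0003444, chromosome 2L, 277582 to 282167, plus strand) had 1 thresholded summit, at 277361 and 221 bp upstream of its start, with a pooled rank of 7215. It ranked 5489 in replicate 1 and 8150 in replicate 3, and replicate 2 had no call at smo at all. Only replicate 1 therefore placed it among its highest 8048 peaks. The position is shared with CG17078, a neighbour on the minus strand. The summit lies 149 bp upstream of a CG17078 start and inside the 5' UTR of a longer CG17078 transcript, so it cannot be given to smo alone. When thresholded peaks were kept only if found in both remaining replicates, smo had 0 without replicate 1, 2 or 3.

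**Figure D2:**
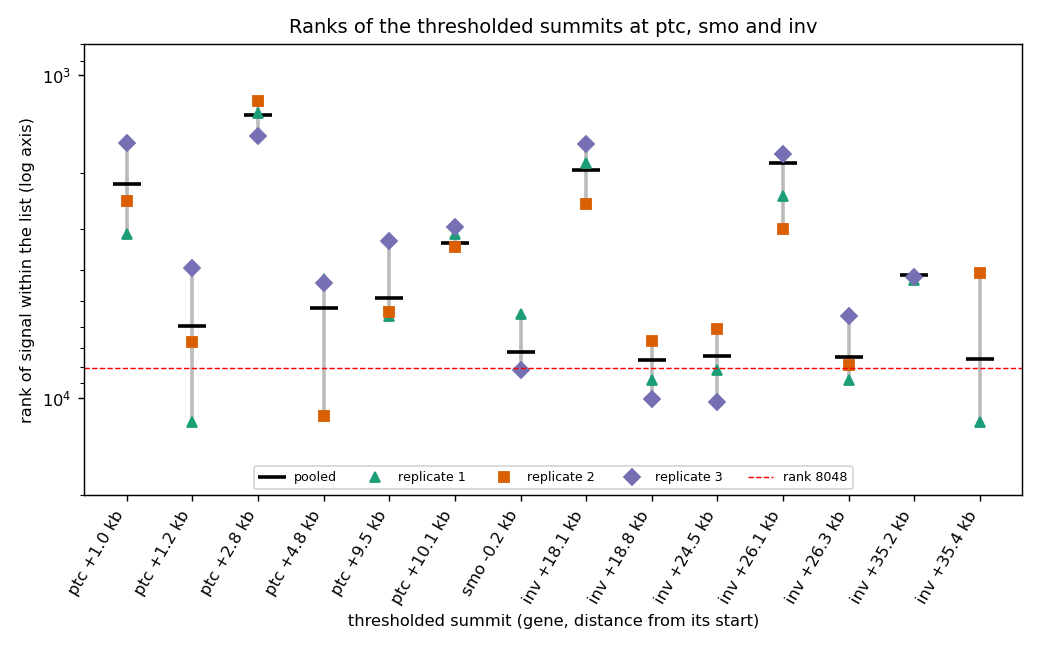
Ranks of the 14 thresholded summits in the pooled list (bar) and the replicates (symbols), on a log axis with stronger ranks at the top; labels give the gene and the distance from its start (kb), and grey lines join the lowest and highest replicate rank. A missing symbol means no call within 100 bp. At ptc +2.8 kb the replicate ranks were 1310, 1199 and 1547.

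The scaffold gene cos (FBgn0000352, chromosome 2R, 7382176 to 7387115, minus strand), whose kinesin-like product holds Ci in the cytoplasm, had no pooled call of any rank. Replicate 1 had 1 call of rank 13520, past the end of the gene, and replicate 2 had 1 of rank 10327 inside it. Replicate 3 had none, and the 2 calls were at different positions. The nearest thresholded summit was 8918 bp from the gene, at the promoter of Glo1. At least 1 pooled call was found at the other 6 genes (85.7% of the 7), against 62.3% of all protein-coding genes, a share not matched on gene span.

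At ci (FBgn0004859, chromosome 4, 47710 to 57041, minus strand), the gene of the pathway's transcription factor, 4 pooled calls were found and none was thresholded. The strongest, at 56423, was 618 bp past the ci start and 74 bp upstream of the start of an antisense noncoding gene, asRNA:CR43957. It ranked 15032 in the pool, 10993 in replicate 1 and 9177 in replicate 3, and replicate 2 had no call within 100 bp. Replicate 2 had its best ci call at rank 14238. No replicate thus placed ci among its highest 8048 peaks. The nearest thresholded summit lay 3867 bp past the end of ci, at the promoter of PlexB, with a pooled rank of 7133.

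The engrailed genes are paralogues that lie side by side on chromosome 2R, transcribed toward each other, with inv (FBgn0001269, 11474465 to 11509695, plus strand) before en (FBgn0000577, 11524006 to 11528210, minus strand). They are classical targets of Polycomb repression. Within 1000 bp of the genes, the thresholded summits were all at inv. The 7 summits at inv lay between 18058 and 35411 bp past its start, so that none was within 500 bp of the inv promoter. The strongest in the pooled list, at 11500528, had a pooled rank of 1863 and ranks of 2367, 3002 and 1749 in replicates 1, 2 and 3. That at 11492523 ranked 1963 in the pool and 1872, 2512 and 1637 in the replicates, each of which placed it above the summit at 11500528. Both lie in intron 1 of 3 and were found in every replicate.

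The remaining inv summits were at the edge of the threshold or differed between replicates. Those at 11493297, 11498960 and 11500727, also in intron 1, had pooled ranks of 7587, 7411 and 7454. Replicate 2 placed all 3 among its highest 8048 peaks, with ranks of 6634, 6083 and 7913. Replicate 1 had calls at all 3 just past that cut, with ranks of 8768, 8157 and 8777. Replicate 3 placed only the one at 11500727 there, at rank 5577, and ranked the others 10052 and 10305. At the 3' end, summits at 11509676 and 11509876 lay 200 bp apart, in an inv exon and 181 bp past the end of the gene. At the exonic position replicates 1 and 3 had calls with ranks of 4291 and 4219. Replicate 2 had a single summit of rank 4100, which lay within 100 bp of the position past the end and not of the exonic one.

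At inv the numbers among the highest 8048 were 3, 7 and 4 in replicates 1, 2 and 3, a mean of 4.67 ± 2.08 (SD, n = 3), which is a wider relative spread than at ptc. Replicate 2 also had a peak of rank 1750 at 11500179 that matched no pooled call and lay 349 bp from the nearest thresholded summit. Kept only if found in both remaining replicates, the inv summits numbered 3, 3 and 2 without replicate 1, 2 and 3. The ptc summits then numbered 5, 5 and 4, and the total over the 7 genes was 8, 8 and 6 instead of 14. Of all 8048 thresholded peaks, 5793, 6094 and 5710 were kept by the same rule. In the decile of gene span that inv shares with ptc, 10.7% of genes had 7 or more thresholded summits, and over all genes 1.09% did.

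At en no call reached the threshold within 1000 bp. Summits 88 bp past and 122 bp upstream of the en start had pooled ranks of 12304 and 13760. The best en call ranked 12076 in replicate 1, 14924 in replicate 2 and 8349 in replicate 3. The interval of 14310 bp between inv and en holds no annotated gene and had 5 pooled calls, 2 of them thresholded. The stronger, at 11515925 and 6230 bp past the end of inv, ranked 1925 in the pool and 2142, 1964 and 1811 in the replicates. Its nearest TSS was that of en, 11958 bp away. Upstream of en, 3 more thresholded summits lay 11198, 15985 and 19041 bp from the start, with pooled ranks of 6180, 4662 and 7161.

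**Figure D3:**
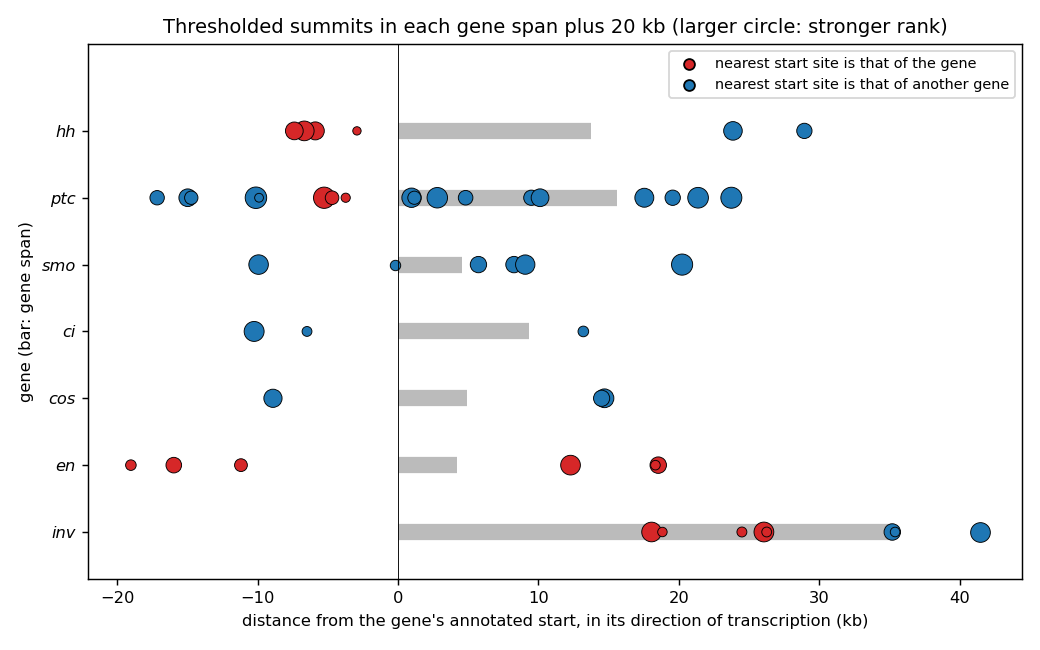
Thresholded summits in each gene span plus 20000 bp, by distance from the annotated start (kb) in the direction of transcription; grey bars are gene spans and larger circles have stronger pooled ranks. Red circles have the gene's own start as the nearest TSS, as for the 4 upstream of hh, and blue ones that of another gene. Summits between inv and en appear in both rows.

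In position, 10 of the 14 summits (71.4%) were intronic, against 38.5% of all thresholded peaks. A single summit (7.14%), that at smo, was within 500 bp of a TSS, against 42.6% of all thresholded peaks. Exons held 2 (14.3% against 2.32%) and intergenic DNA 1 (7.14% against 16.5%). Since 13 of the 14 come from the long introns and the end of 2 genes, these shares describe ptc and inv rather than the pathway. Without replicate 1, 2 or 3, and in replicates 2 and 3 alone, no summit was within 500 bp of a TSS, because the smo summit was lost.

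In sequence, the summit windows had a median of 35.7% G and C (15.8 to 53.5), against 32.7% in all thresholded windows. The Runx consensus was in 1 of the 14 windows (7.14%), against 2.68% of all 8048 windows. That window was at the ptc summit at 8659762, with the match 22 bp from the summit. With the highest peaks of replicate 1 alone, 0 of its 9 windows held a match. GCCAT was in 4 windows (28.6% against 13.3%) and a GATA match in 3 (21.4% against 16.6%). TAATTA was in 1 (7.14% against 9.46%). The Ci site GACCACCCA was in none of the 14 windows and in none of the 8048. With up to 1 mismatch it was in none of the 14 and in 0.845% of all. Of the 38 lower calls at the 7 genes, 9 windows held the GAGA factor sequence GAGAG. They included those 84 bp upstream of ptc and 88 and 122 bp from the en start. The others lay in hh and inv and inside or past the end of ptc. GCCAT was in 5 of the 38, and each other searched motif in at most 2. Shares over all lower calls are not given here, so these counts have no background. No window of the 14 held GAGAG, against 9.0% (724 of 8048) of all thresholded windows. Nor did any hold TATCGATA (1.60%), the BEAF-32 sequence CGATAT (5.65%), GGTCACACT (0.721%), the Zelda site CAGGTA (1.83%) or the E-box CAGCTG (3.03%). CGATAT can overlap TATCGATA, and a match says only that these letters are present.

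**Figure D4:**
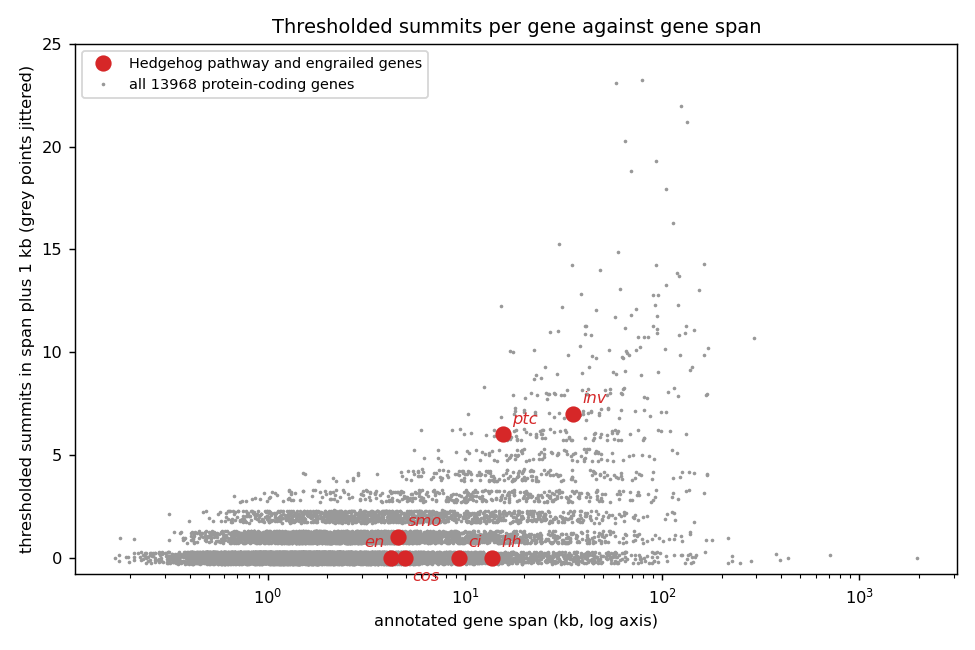
Thresholded summits in span plus 1000 bp against annotated gene span (kb, log axis), for the 7 genes (red) and all 13968 protein-coding genes (grey, jittered vertically; 1 gene lies above the axis). ptc with 6 and inv with 7 sit among the higher counts of the decile of gene span that they share, and en, cos, ci and hh are at 0.

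Genes whose best ranks were most like those of each gene were found among 6615 protein-coding genes with a call in each of the 3 replicate lists, by the mean absolute difference of log10 rank. For ptc these were CG15365 (best ranks of 1328, 1144 and 1653; mean difference 0.0184) and rdgB (1355, 1081 and 1574; 0.0224). For inv they were CG33199 and CG8229, which had the same best ranks of 1831, 1781 and 1644 (0.00637 each). For hh they were CG18324 (0.00876) and Ref2 (0.0131), for ci Chsy (0.0129) and CG10621 (0.0138), and for en snu (0.00945) and ras (0.0148). With 3 lists such likeness is easily met, and smo and cos lacked a call in 1 replicate list.

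The other genes of the pathway were described as a list of 27, chosen with earlier results of these data known. In it 21 genes (77.8%) had a thresholded peak, against 38.1% of all protein-coding genes, with 20, 19 and 21 in replicates 1, 2 and 3. For some of the 21, including Gprk2, dally and boi, the strongest peak had another gene's TSS as its nearest. Such a peak cannot be given to the listed gene alone. The median was 1.00 thresholded summits per gene in the list, 0 in the 7 genes above and 0 over all protein-coding genes. The listed genes span 1596 to 64997 bp, and the list was not matched on span. In the deciles of gene span that hold the 7 genes, 50.5% to 68.1% of genes had a thresholded peak. Shares for the deciles of the listed genes themselves are not given here. Whether the list differs from the 7 genes or from other genes was not tested.

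Among the 8 genes for processing, release and spread of the ligand, 6 had a peak. The glypican genes dlp and dally, whose products carry Hedgehog at the cell surface, had 9 and 8 summits with top ranks of 805 and 2305. The strongest dally summit had the TSS of CG32026 as its nearest, 3249 bp away. Across replicates dlp had 9.33 ± 1.15 and dally 6.33 ± 2.52 (SD, n = 3). The secreted factor gene shf had 4 with a top rank of 806, and the exostosin gene sotv had 1 of rank 1194, 133 bp upstream of its TSS. The acyltransferase gene rasp and the exostosin-like gene botv had none. Without replicate 1, 2 and 3, dally had 5, 4 and 2 and shf 2, 2 and 2. Without replicate 1 or 3, sotv had 0, since replicate 2 lacked its peak. Of the co-receptor genes, boi had 3 summits with a top rank of 1826, and ihog had none. The strongest boi summit had the TSS of z as its nearest, 5000 bp away.

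Of the 11 genes for cytoplasmic transduction and processing of Ci, 9 had a peak. The strongest counted for Gprk2, a kinase gene that acts on Smoothened, had a rank of 4, but its nearest TSS was that of PNPase, 82 bp away. The casein kinase gene gish had 1 summit of rank 48, at 148 bp upstream of a gish TSS, with ranks of 31, 72 and 43 in replicates 1, 2 and 3. The kinase gene sgg had 6 with a top rank of 122, and dco, another casein kinase gene, had 3 with a top rank of 1202. The ubiquitin ligase gene Cul3 and Su(fu), a Ci-binding inhibitor, had none. Without replicate 1, Gprk2 had 2 of its 5. Its count was 3 without replicate 2 or 3. The count at sgg was 3 without replicate 2 and 4 otherwise.

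Of the 6 target genes, 5 had a peak. The gene rdx, which encodes an adaptor that targets Ci for degradation, had 11 summits and a top rank of 266 at one of its own promoters, 303 bp upstream. Its replicate counts were 10, 11 and 13. The ligand gene dpp had 1 intronic summit of rank 747, with ranks of 824, 884 and 598 in the replicates. The Egfr ligand gene vn had 6 with a top rank of 3286, and 3 of them were left without replicate 3. The homeobox gene caup had 1 of rank 3093. Its neighbour ara lacked a thresholded peak, and 2 of the highest peaks of replicate 2 lay there.

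**Figure D5:**
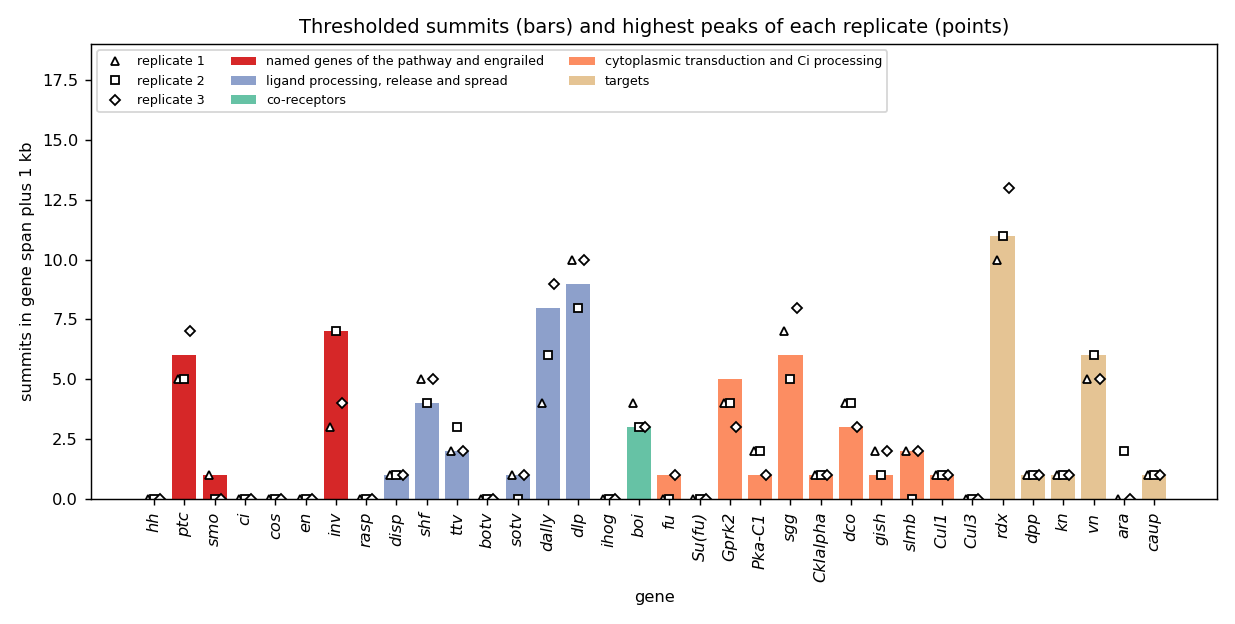
Thresholded summits (bars) and summits among the highest 8048 peaks of replicates 1, 2 and 3 (open symbols) in span plus 1000 bp, for the 7 genes (red) and 27 other pathway genes by role. rdx has the tallest bar with 11, and replicate 2 alone has peaks at ara.

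The chromatin was that of whole animals, so fewer cells with binding and weaker binding in each cell cannot be told apart. The lack of a thresholded peak does not show that a gene was unbound.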

How the data were processed

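The data were ChIP-seq peak lists of lz-GFP in 3 biological replicates, per the labels. The authors deposited 30000 peaks and background regions (calls) per replicate and for the pooled replicates, and a set of 8048 thresholded by the irreproducible discovery rate, on dm6. Per the deposited file lists, the lists derive from the replicates' alignments and 1 control alignment. No source used here gives the aligner, the peak caller or the reproducibility level. The authors' signal value is on a scale that differs between lists and was used only for ranks. The −log10 q-value is as deposited by the authors.

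As a check, the thresholded summits and the 8048 highest pooled ones were compared and were identical. Each replicate was cut to its 8048 highest. Gene models were Ensembl release 115, whose coordinates for all 7 genes equal those of RefSeq; the sequence was RefSeq dm6, and coordinates are 1-based. Summits within 500 bp of a TSS were classed as promoter, the others as exonic, then intronic, then intergenic. Motifs were searched within 50 bp of summits. The dm3 lists were not used here. The genes, the list of 27 others and their roles were chosen with earlier results of these data known. Named from that list were, per role, up to 4 genes with the highest peaks and up to 2, first by name, without a peak. Depth is unknown. Each replicate has a biosample of its own in the labels, all of 1 line. Alternatives covered the gene span, matching distance, promoter and motif windows, the 4024 strongest peaks and leaving out each replicate. Counting, matching and motif search were tested on simulated data. Scripts ran in Python 3.11.15; the libraries were matplotlib 3.10.9, scipy 1.17.1, pandas 2.3.3 and numpy 2.4.6.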

Additional observations from a re-analysis of the deposited data

How the results depend on the processing

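With 0 bp added to the gene span, 2 of the 7 genes had a peak, with 5000 bp added 5 and with 20000 bp (chosen after seeing the data) 7, against 15.9%, 59.4% and 85.9% of all genes. The thresholded summits at the 7 genes numbered 23 with 5000 bp added, 47 with 20000 bp, 5 among the 4024 strongest peaks and 9 in replicate 1 alone. Leaving out a replicate left 6 to 8 of the 14, at 2 genes, ptc and inv. Of all protein-coding genes, 29.2%, 32.8% and 29.6% had a peak without replicate 1, 2 and 3. The share found in all 3 replicates was 100% among the 4024 strongest and 78.6% when all calls of each replicate were considered. It was 64.3% (9 of 14) with matching within 200 bp and 42.9% with matching within 50 bp. Shares of all thresholded peaks under these alternatives are not given here. On leaving out a replicate, the share found in both remaining ones was 42.9% to 57.1%. The share within 500 bp of a TSS was 0% with 0 bp added, among the 4024 strongest, in replicates 2 and 3 alone and without each replicate. It was 28.6% (4 of 14) with a promoter window of 1000 bp, 21.7% (5 of 23) with 5000 bp added and 25.5% (12 of 47) with 20000 bp added. The Runx share was 0% in replicate 1 alone, 20% (1 of 5) among the 4024 strongest, and 12.5% to 16.7% on leaving out a replicate. The count of other pathway genes with a peak stayed within 1.5 times its value under every alternative run, from 16 to 25 of 27. It was 16 with 0 bp added, 25 with 5000 bp and 25 with 20000 bp. The share of all genes moved more, from 15.9% to 59.4% and 85.9%, so the contrast with all genes was not stable. At 1 to 14 summits, each of these shares moves with single summits. Depth is unknown, so how it limits weak calls was not tested. No paired analysis was possible because there is 1 group.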
